A study of Homo sapiens with 16 samples.

Results

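The regions described here are 372 places in the genome where H3K4me3 was called in vehicle but not after octanoic acid (OA) in MCF-10A, a breast epithelial cell line that is not transformed. Merging the peaks of the 6 vehicle and OA H3K4me3 libraries at an overlap of 1 bp gave 28846 regions, of which 18734 had a peak in at least 2 libraries. A region was termed vehicle-only when at least 2 of the 3 vehicle libraries and none of the 3 OA libraries had a peak in it. The members were therefore selected on the calls of these libraries, and the calls that chose them are given as a description without a test. They made up 1.99% of the 18734 regions, beside 1442 regions (7.7%) with the mirror pattern, at least 2 OA calls and no vehicle call, termed OA-only. Both counts moved with single libraries: leaving out 1 H3K4me3 library at a time gave 44 to 711 vehicle-only and 378 to 2403 OA-only regions. Without OA library 3 the order turned, to 711 against 378. The minimum of 2 calls was kept, so leaving out a library tightened the rule for its own group and loosened it for the other. Part of these shifts is therefore built in. Cells of this 1 line were exposed for 24 hours to vehicle (PBS) or to 5 mM OA, a medium-chain fatty acid, and profiled by CUT&RUN, in which a nuclease tethered to an antibody releases the DNA beside a histone mark. There were 3 vehicle and 3 OA libraries each for H3K4me3 and for H3K27me3, seeded in biological triplicate, and untreated cells gave 2 H3K4me3 and 2 IgG libraries. IgG has no target in chromatin, so its peaks mark places that release DNA without the mark.

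H3K4me3 is placed by the SET1 and MLL methyltransferase complexes at the start sites of genes that are active or poised for transcription. It is strongest in the nucleosomes just downstream of a CpG-rich start site and is weak at most enhancers, where H3K4me1 prevails. H3K27me3 is the mark of Polycomb repression. AP-1, the FOS and JUN dimer that binds TGAGTCA, and the TEAD factors of the Hippo pathway bind many enhancers of basal epithelial cells.

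Each list gives a fold over local background and a −log10 p-value per peak. The reads piled up on a peak were solved from these numbers, and the lowest peak of any of the narrow lists stood on 5 to 8 reads. The lowest background that many peaks shared, which scales with depth if no control library set it, was 0.822, 0.775 and 0.45 reads in vehicle libraries 1, 2 and 3 and 0.853, 0.633 and 0.722 in OA libraries 1, 2 and 3. Absence of a call is therefore not absence of the mark, since the threshold is harder to pass with fewer reads. Among 8 basal mammary markers, 5 (KRT5, KRT17, ITGB4, CDH3 and EGFR) had a peak within 1 kb of their start in all 6 libraries, while TP63 had none there. LAMB3 had one in 5 libraries, and KRT14 only in vehicle libraries 1 and 2. Of 4 luminal hormone-sensing markers, FOXA1 and GATA3 had a peak in all 6 libraries, ESR1 in 1 and PGR in 0. Of 3 fibroblast markers, COL1A1 had one in 4 libraries and 2 had none. The 3 leukocyte and 2 endothelial markers had no peak at their starts.

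Sequences of 5 vehicle-only regions with an AP-1 core show the distal type of region that made up most of the set. TACC2 and OGN name 2 of the regions that all 3 vehicle libraries called and that held TGAGTCA or its reverse complement within 200 bp of the summit. ZNF543, IER3 and RASA2 name the distal regions with this core, called in 2 vehicle libraries, that ranked highest in the weaker of the 2. The plus strand of hg38 is printed 5′ to 3′, 121 bases each, with the AP-1 core nearest to the summit in capitals.
TACC2 (chr10:122128063-122128183): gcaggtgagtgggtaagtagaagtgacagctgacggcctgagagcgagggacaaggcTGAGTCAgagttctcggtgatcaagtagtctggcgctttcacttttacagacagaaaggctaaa
OGN (chr9:92386096-92386216): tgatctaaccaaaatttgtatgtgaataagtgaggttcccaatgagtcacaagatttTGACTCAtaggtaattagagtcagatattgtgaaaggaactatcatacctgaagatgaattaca
ZNF543 (chr19:57302076-57302196): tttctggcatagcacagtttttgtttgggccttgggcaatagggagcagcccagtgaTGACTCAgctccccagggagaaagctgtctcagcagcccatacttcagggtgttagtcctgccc
IER3 (chr6:30811021-30811141): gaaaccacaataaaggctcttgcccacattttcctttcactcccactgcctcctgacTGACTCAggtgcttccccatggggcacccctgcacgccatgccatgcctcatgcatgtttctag
RASA2 (chr3:141477436-141477556): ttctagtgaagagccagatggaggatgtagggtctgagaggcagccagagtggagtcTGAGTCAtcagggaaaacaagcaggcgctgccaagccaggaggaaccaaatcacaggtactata

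A second pair of sequences comes from 1 of the 50 regions, among the 372, that were counted as tandem repeat. Both lines come from the plus strand of hg38 around the summit of a chromosome 1 region that all 3 vehicle libraries called. The second unit follows directly on the first, and its capitals mark the 107 bases (62.6%) that equal the base at the same place in the first unit.
Unit 1 (chr1:124466970-124467140): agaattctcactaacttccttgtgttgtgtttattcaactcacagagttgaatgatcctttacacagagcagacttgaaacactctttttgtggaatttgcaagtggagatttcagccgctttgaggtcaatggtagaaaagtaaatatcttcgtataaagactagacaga
Unit 2 (chr1:124467141-124467311): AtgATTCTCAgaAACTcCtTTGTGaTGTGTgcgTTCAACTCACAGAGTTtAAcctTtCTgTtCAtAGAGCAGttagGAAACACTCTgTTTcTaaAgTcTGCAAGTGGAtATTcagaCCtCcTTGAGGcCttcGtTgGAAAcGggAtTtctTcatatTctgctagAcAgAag

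Most vehicle-only regions rested on the same pair of libraries. Vehicle libraries 1 and 2 alone called 272 of the 372 (73.1%), libraries 1 and 3 called 58, libraries 2 and 3 called 27, and all 3 called 15. Library 3 had the lowest background of the 3. Without vehicle library 1, 44 regions met the rule with calls in both others, and 73 did so without library 2. Just outside the rule lay 5408 regions with a call in 1 vehicle and no OA library, whose median length was 199 bp, and 530 regions with calls in 2 vehicle libraries and 1 OA library. Members had a median length of 367.5 bp (quartiles 277.5 and 483 bp, range 179 to 1621 bp), against 575 bp for OA-only regions and 1209 bp for all 18734.

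Vehicle-only calls came from the weak end of each list. Peaks were ranked within their own library by −log10 p, the number in column 8 of the list, and the rank was written as a percentile, where 100 is the strongest peak. For each member the lower rank among its calling libraries had a median at the 10.1 percentile and reached 64.4 at most. Only 35 members stood at or above the 25 percentile in every calling library and 2 at or above the 50 percentile. The median member peak stood on 13, 11 and 12.5 reads in vehicle libraries 1, 2 and 3, whereas peaks of the regions called in all 6 libraries stood on 82, 119 and 33. Of all regions with at least 2 vehicle calls, 29.5% lacked an OA call when their mean percentile was at most 10, 7.34% did so between 20 and 30, and 0.542% between 40 and 50. The mirror share, regions with at least 2 OA calls that lacked a vehicle call, was higher in each of these bins, with 47.4%, 25.5% and 1.88%. The ranks chose nothing by themselves but come from the same peaks as the rule, so these shares are not tested.

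**Figure D1:**
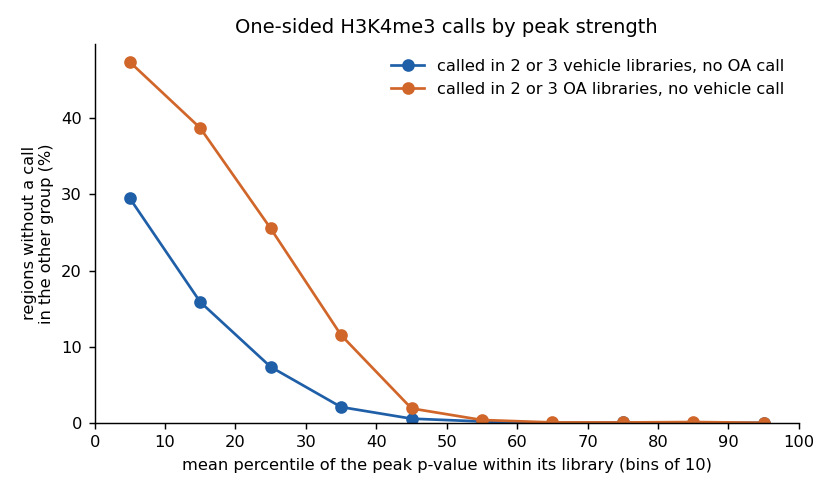
Share of regions (%) called in 2 or 3 libraries of one group and in none of the other, by the mean percentile of their peak p-values within the calling libraries, in bins of 10. The vehicle line falls from 29.5% to 2.07% over the first 4 bins and the OA line from 47.4% to 11.5%, and both lie under 2% above the 40 percentile.

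The set was divided into 4 types by sequence and position, with limits chosen after the values were seen. There were 50 regions in the tandem repeat and 36 within 1 kb of a region called in all 6 libraries. Another 78 lay within 1 kb of an annotated start site of any gene, and the remaining 208 were distal. The types differed in the libraries that called them. Libraries 1 and 2 alone called 28 of the 36, 70 of the 78 and 169 of the 208, but 5 of the 50 repeat regions.

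Start sites were uncommon under vehicle-only regions. Of the 372, 37 (9.95%) covered an annotated start site and 102 (27.4%) lay within 1 kb of one, against 41.3% and 57.4% of OA-only regions and 70.5% and 76.5% of all 18734. The share within 1 kb was 12.3% without vehicle library 2. Only 3 members covered the main start site of a protein-coding gene, those of COL7A1, MNS1 and MYBL2, against 303 of the 1442 OA-only regions. At the other end, 56 members (15.1%) were over 50 kb from any start site, against 3.26% of OA-only regions. The summit fell in an intron of a protein-coding gene in 188 members (50.5%), close to the 50.1% of all regions and beside 45.9% of OA-only regions. It fell between genes in 125 (33.6%), against 16.6% of all and 25% of OA-only regions, and 50 of the 125 were in the tandem repeat. The 400 bp windows around the summits had a median GC content of 48.5%, against 59.5% for OA-only regions and 63.8% for all, and 7.26% met the usual limits of a CpG island, against 44.3% and 63.5%. These traits were shared with regions called in both groups but in few libraries. Of the 1253 regions called in 1 vehicle and 1 OA library, 24.5% lay within 1 kb of a start site, the median GC content was 50.2% and 11.7% were CpG island-like. For the 530 regions with 2 vehicle calls and 1 OA call the values were 26.8%, 50.5% and 11.7%.

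**Figure D2:**
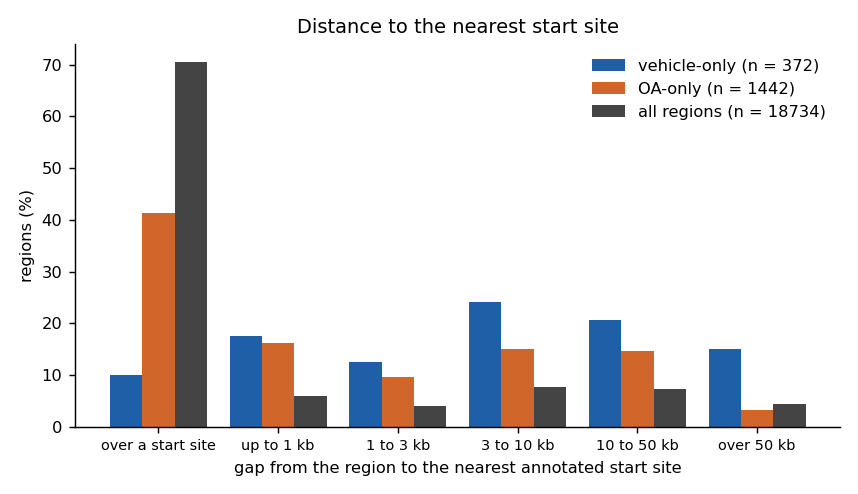
Share of regions (%) by the gap between the region and the nearest annotated start site of any gene, for 372 vehicle-only regions, 1442 OA-only regions and all 18734 regions with at least 2 calls. Vehicle-only regions have the lowest bar over a start site (9.95%) and the highest bar in each of the other 5 bins.

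Of the 4 types, the regions at the margins of constitutive H3K4me3 domains had the most reads at the summit and the lowest fold, by the median in each vehicle library. These 36 regions had a median gap of 287.5 bp to a region called in all 6 libraries, and 33 had a peak of at least 1 OA library within 1 kb. That count is largely built in, since the type was defined by a region with OA peaks within 1 kb. Their summits fell 1 to 3 kb downstream of the nearest protein-coding start in 22 of 36. In introns of protein-coding genes lay 25 (69.4%), against 59.4% of OA-only regions of this type. The median peak stood on 52 reads in vehicle library 1 and 65.5 in library 2, against 13 and 11 for members near a start site and 11 and 10 for distal members. Their fold was lower, with medians of 3.1 and 3.02 in libraries 1 and 2, against 5.38 and 5.63 for distal members. SFPQ, a splicing factor, had a 511 bp region (chr1:35190655-35191165) on its coding exon sequence, 2165 bp downstream of its start, with 106 and 150 reads in libraries 1 and 2 and a fold of 4.85 and 3.64. The nearest OA peak was 452 bp away.

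The further genes named here were picked after the values were seen and do not stand for the 36. HNRNPR, a messenger RNA-binding protein, had a region 1785 bp downstream of its start with 50 and 77 reads, and SERBP1, a ribosome-associated protein, had one at 2139 bp with 61 and 123 reads. The ribosomal protein genes RPLP2, RPS9 and RPL39 had regions 1274, 2633 and 1189 bp downstream, with 55, 53 and 45 reads in library 1 and 64, 72 and 67 in library 2. These 5 regions lay in introns, and library 3 called none of them. EP300, a histone acetyltransferase, had 90 and 87 reads at 1595 bp. SETD1B, a catalytic subunit of a SET1 complex that writes H3K4me3, had 51 and 59 reads at 1432 bp. Cell-cycle genes were CDK1, the mitotic kinase, with 37 and 77 reads at 1550 bp, and CDT1, the replication licensing factor, with 53, 57 and 6 reads in all 3 vehicle libraries. The gap from the CDT1 region to the nearest OA peak was 299 bp. The mirror set held 69 OA-only regions beside a constitutive region, and 2 more in the tandem repeat. With the repeat included, 71 OA-only regions (4.92%) and 38 vehicle-only regions (10.2%) lay within 1 kb of a constitutive region, against 3.27% of regions called in 1 vehicle and 1 OA library and 6.42% of those with 2 vehicle calls and 1 OA call. Of the 69, 22 (31.9%) had a summit 1 to 3 kb downstream of the nearest protein-coding start, against 61.1% of the vehicle-only regions.

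**Figure D3:**
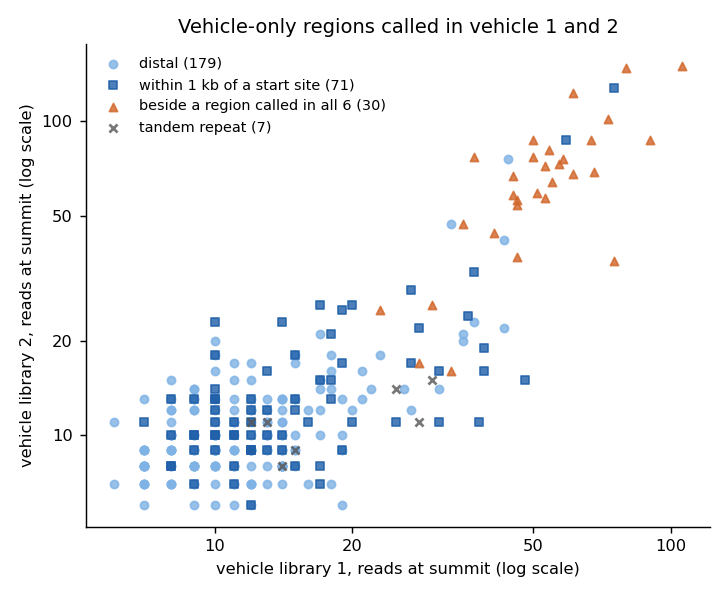
Reads at the summit in vehicle library 1 (x axis) and library 2 (y axis), both on log scales, for each vehicle-only region that both libraries called. Triangles, the 30 regions beside a region called in all 6 libraries, gather at the upper right, while distal (179) and start-site (71) regions gather near 10 reads in both libraries.

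The 78 regions near a start site mostly lay far from the main start of a protein-coding gene. Only 32 covered a start site, and the median distance to the main start of a protein-coding gene was 25235 bp, against 203 bp for the 775 OA-only regions of this type. Single genes of the type are described next, some named by rule and some after their values were seen. KRT6C, a keratin of stratified epithelium, had a region 364 bp downstream of its start (chr12:52473295-52473713) with a fold of 9.08 in library 1 and 13.7 in library 2, on 19 and 25 reads. The nearest OA peak was 17768 bp away. KRT6C is nearly identical to KRT6A and KRT6B, so reads can be placed on the wrong copy. KRT14, the keratin of basal epithelium, had an 881 bp region (chr17:41585586-41586466) with a fold of 5.45 on 48 reads in library 1 and 5.86 on 15 reads in library 2. Untreated library 1 called it too, with a fold of 3.97, and the nearest OA peak was 36135 bp away. KRT14 also has near-identical copies on chromosome 17.

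COL7A1, the collagen of anchoring fibrils, was covered at its start (chr3:48594658-48595385) with 28 and 22 reads and a fold of 5.11 and 6.18. MNS1, a protein of sperm flagella and motile cilia, was covered with 13 and 12 reads and a fold of 7.29 and 6.93. MYBL2, a transcription factor of the cell cycle, had an 887 bp region (chr20:43667085-43667971) with 27 and 29 reads and a fold of 7.11 and 8.59. At MYBL2 the nearest OA peak lay 34 bp from the region. FGFBP1, a carrier of fibroblast growth factors, had 38 and 11 reads 1167 bp downstream of its start, a call in untreated library 1 and an OA peak 263 bp away. SREBF1, the regulator of fatty acid synthesis, had a 1364 bp region at an internal start 13517 bp downstream of the main one, with 39 and 16 reads. Untreated library 2 called it, and the nearest OA peak was 12605 bp away. BRD3, a BET bromodomain protein, had 17 and 26 reads at an internal start. SMAD1 and RAPGEF2 had 2 neighbouring regions each, at internal starts, with 8 to 15 reads in library 1 and 10 to 23 in library 2. Library 3 called none of these genes' regions.

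By the median of the lower percentile, 8.38, the 208 distal regions were the weakest type. In vehicle library 3 the median rank was lower near start sites (18.8, 8 members) than in distal members (23.2, 39 members). Of the 208, 117 (56.2%) lay in introns of protein-coding genes and 63 (30.3%) between genes. The shares were 44.7% and 39.4% over all distal regions not called in all 6 libraries. LMO4, a LIM-domain cofactor of mammary epithelium, had a 642 bp region (chr1:87335087-87335728) 6779 bp downstream of its start, 1 of 10 distal regions that all 3 vehicle libraries called. It stood on 43, 42 and 17 reads in vehicle libraries 1, 2 and 3, with a fold of 5.26, 3.94 and 5.61, and untreated library 1 called it with a fold of 5.21. The nearest OA peak was 3678 bp away. TGFA, a ligand of the EGF receptor, had 2 distal regions in its introns. The region at chr2:70541533-70542010 stood on 8, 12 and 6 reads in the 3 vehicle libraries and was called in untreated library 1, and the region at chr2:70524385-70524729 stood on 12 and 17 reads in libraries 1 and 2.

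The AP-1 regions printed above stood on 6 to 26 reads. TACC2, a centrosomal coiled-coil protein, had 26, 14 and 6 reads in vehicle libraries 1, 2 and 3, with a fold of 6.54, 6.59 and 4.64, and an OA peak lay 396 bp away. The OGN region, in an intron of CENPP, had 8, 9 and 9 reads. ZNF543 had 18 reads in each of libraries 1 and 2 and a call in untreated library 1, IER3 18 and 16, and RASA2 12 and 15. These 5 regions were chosen for display by the motif and their rank. TP63, the transcription factor of basal epithelium, had an AP-1 region in an intron with 6 and 11 reads, near the lowest peak of the lists. BAG3, a co-chaperone of the heat shock response, had one with 12 and 9 reads and a call in untreated library 1.

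The AP-1 core was more frequent in vehicle-only than in OA-only windows, but not more than in other regions called in few libraries. TGAGTCA or its reverse complement lay in 25.5% of vehicle-only windows, 15.5% of OA-only windows and 9.86% of all windows of the same 400 bp, and in 33.8% and 29.6% of regions with calls in 1 vehicle and 1 OA library and in 2 vehicle libraries and 1 OA library. Among regions near a start site, the shares were 25.6% (20 of 78) for vehicle-only, 8.77% for OA-only and 11.2% for all regions of this type that were not called in all 6 libraries. Among distal regions they were 35.1% (73 of 208), 27% and 34.3%, the last again over distal regions not called in all 6 libraries, so the vehicle-only share was close to that of the whole type. The TEAD core ACATTCC was found in 11.6%, 5.06% and 4.28% of vehicle-only, OA-only and all windows and in 10.2% and 8.3% of the sets called in both groups, and the GC box GGGCGG in 16.9%, 49.6% and 58.6%. No vehicle-only window held the CRE TGACGTCA or the GRHL core AACCGGTT, beside 10 and 5 of 1442 OA-only windows. Both motifs were rare, found in 0.693% and 0.347% of OA-only windows and in 1.1% and 0.208% of all windows. With shares this low, a 0 in the smaller vehicle-only set is not read as a difference. These counts were not tested, and base composition differed between the sets as given above.

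Calls in untreated cells were a measure that the rule did not use. Untreated libraries 1 and 2 called 49 (13.2%) and 32 (8.6%) of the 372 regions, 61 (16.4%) were called in either and 20 in both. This lay far below the 60.3% of all 18734 regions and above the 2.15% of OA-only regions (31 of 1442). The share was 12.6% in regions with calls in 1 vehicle and 1 OA library and 23.4% in those with 2 vehicle calls and 1 OA call. It was 8.36% without vehicle library 3 and 50.7% without vehicle library 2. By type, either library called 35 of 50 repeat regions, 3 of 36 beside constitutive regions, 7 of 78 near start sites and 16 of 208 distal ones. Because most of these calls fell in the repeat, the regions in the repeat or under an IgG peak were then left out. Untreated cells called 22 of the remaining 316 vehicle-only regions (6.96%), 16 of 1415 OA-only regions (1.13%) and 39 of 1081 regions (3.61%) with calls in 1 vehicle and 1 OA library. Regions with 2 vehicle calls and 1 OA call were not put through this filter. Of those 530 regions, 112 lay under an IgG peak and 34 others were called in untreated cells. Of the 372 vehicle-only regions, 37 lay under an IgG peak and 30 others were called in untreated cells. The order of these filtered sets was the same in each of 4 bins of peak rank. In the lowest bin the shares were 5.63% (4 of 71), 0.526% (1 of 190) and 3.48% (10 of 287). In the highest, above the 30 percentile, they were 14.8% (4 of 27), 1.72% (4 of 233) and 10.4% (5 of 48). With so few calls, the order within a single bin is not read as a difference. Untreated library 1 gave 20 of the 22 calls and library 2 gave 4. The untreated cells were outside the exposure experiment, and the part of their handling in this order was not tested.

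**Figure D4:**
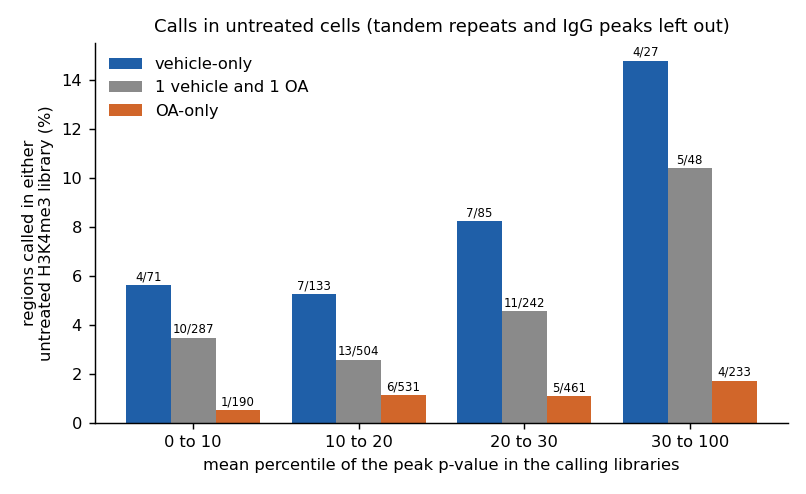
Share of regions (%) called in either untreated H3K4me3 library by the mean percentile of their peaks in the calling vehicle or OA libraries, with counts above the bars. Repeat regions and regions under an IgG peak are left out. In all 4 bins the vehicle-only bar is the highest of the sets shown (5.26% to 14.8%) and the OA-only bar the lowest (0.526% to 1.72%). Regions with 2 vehicle calls and 1 OA call are not shown.

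IgG peaks lay under 37 of the 372 regions (9.95%), against 1.39% of OA-only regions and 4.97% of all 18734. The share was 9.5% in regions with calls in 1 vehicle and 1 OA library and 21.1% in those with 2 vehicle calls and 1 OA call. It rested on single libraries, with 1.74% without vehicle library 3 and 39.7% without vehicle library 2. The repeat held 31 of the 37. The other 6 comprised 1 region beside a constitutive region and 5 distal ones, among them the 2 regions outside the repeat that are nearest to ZNF33B, in the pericentromere of chromosome 10. The second of these, at chr10:42090620-42090871, was the highest-ranked member of the whole set, with 56 and 85 reads in vehicle libraries 1 and 3 and a fold of 10.8 and 11. No region near a start site lay under an IgG peak.

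The tandem repeat was defined by the period of alpha satellite, the repeat of human centromeres. A region was counted as repeat when at least 40% of the bases in the 1000 bp around its summit equalled the base at 1 alpha satellite unit's distance, a limit set after the values were seen. The 50 vehicle-only repeat regions (13.4%) compare with 24 OA-only regions (1.66%) and 716 of all regions (3.82%), but also with 11.8% of regions called in 1 vehicle and 1 OA library and 16.6% of those with 2 vehicle calls and 1 OA call. They lay on 13 chromosomes, and 28 fell between 122567185 and 124782354 of chromosome 1, where hg38 carries modelled centromere sequence. Vehicle libraries 1 and 3 alone called 37 of the 50. The median fold was 5.86 in library 1 and 6 in library 3, and IgG called 31 of them. The region printed above had 30, 15 and 29 reads in the 3 vehicle libraries, and both untreated and both IgG libraries called it, with an IgG fold of 6.29 and 9.3. Short reads cannot be placed on one copy of such a repeat with confidence, so the positions are those the authors' aligner gave. Without the repeat the set held 322 regions.

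Among regions nearest to genes of the chosen pathways, the vehicle-only share was close to that among all regions. The 13 gene lists together held 380 of the regions with at least 2 calls, and 10 of these (2.63%) were vehicle-only, beside 1.99% of all regions. The mammary lineage list had 2 of 28 (KRT14 and TP63) and growth factors had 2 of 34, both at TGFA. Stress response had GCLM, the modifier subunit of glutathione synthesis, with 8 and 9 reads over 50 kb upstream. The list of fatty acid oxidation had PPARA, the fatty acid-sensing nuclear receptor, through a region in MIRLET7BHG with 37 and 33 reads. Lipid synthesis had SREBF1, cytokines had LIF, the cell cycle had CDK1, and methylation enzymes had SETD1B, with 1 region each. The lists of EMT, AP-1, serine and folate metabolism, neurotrophin, and Notch, Wnt and Hedgehog genes had 0 of 24, 26, 28, 19 and 47 regions. Beside a share of 1.99% of all regions, these lists are too small for a 0 to be read as a difference. Outside the repeat the set was spread over 305 nearest genes, and 17 had 2 regions, among them TGFA, SMAD1, RAPGEF2, the clock gene BMAL1 and TNS4, a focal adhesion protein. Of the 305 genes, 203 had their main start site under a region called in all 6 libraries, a share of 66.6%. The share was 54.1% of the 998 genes nearest to regions called in 1 vehicle and 1 OA library and 32.4% of the 1319 nearest to OA-only regions. This order is partly built in. A main start covered by a region of these sets cannot lie under one called in all 6 libraries. Such a start was covered by 303 OA-only regions, 48 regions with 1 vehicle and 1 OA call and 3 vehicle-only regions. The share over all protein-coding genes is not given here.

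With the repeat included, the share of vehicle-only regions with H3K27me3 was near that of all regions, and outside the repeat it was lower. Any of the 6 libraries had a peak at 23 members (6.18%), against 7.09% of all 18734 and 16.5% of OA-only regions. The repeat held 14 of the 23. Outside it the share was 2.8% (9 of 322), against 5.09% of all and 16.2% of OA-only regions outside the repeat. With the repeat included, it was 6.94% of regions called in 1 vehicle and 1 OA library and 14.7% of those with 2 vehicle calls and 1 OA call. Without repeat and IgG regions it was 1.58% of vehicle-only and 2.96% of 1 vehicle and 1 OA regions. Members were shorter than all regions (median 367.5 against 1209 bp), and the part of length in these shares was not tested. Broad H3K27me3 peaks were found at 6, 2 and 4 of the 372 members in vehicle libraries 1, 2 and 3 and at 20, 3 and 2 in OA libraries 1, 2 and 3. The means of 4 ± 2 and 8.33 ± 10.1 regions (SD, n = 3) differed by less than the spread between libraries (4.33 regions, two-sided exact permutation test, p = 0.9). OA library 1 stood apart, and 14 of its 20 regions were in the repeat. Without this library the difference was −1.5 regions. Because the lists differed in length, the share of all other regions with a peak was subtracted. Vehicle-only regions were then below the others by 1.58, 1.6 and 0.94 percentage points in the vehicle libraries, and the values were 0.268, −0.571 and −0.301 in OA. The OA values were all higher, by 1.17 percentage points on average (exact permutation test, two-sided p = 0.1, the smallest that 3 against 3 allows). With same-numbered libraries paired, the exact p-values were 0.75 and 0.25. Without repeat and IgG regions the share difference was 0.182 percentage points and the difference in regions −0.667. With the H3K27me3 lists cut to equal numbers of peaks, the differences were 0.711 percentage points and 3.33 regions (exact permutation test, two-sided p = 0.2 and 0.6).

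**Figure D5:**
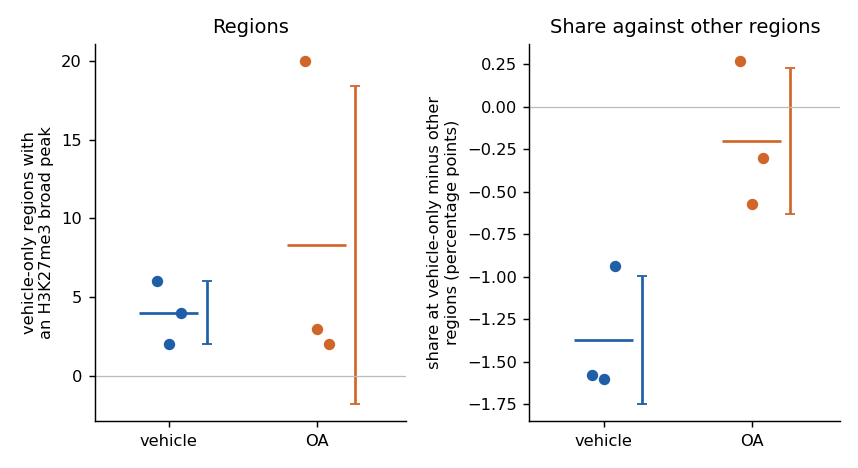
Left, vehicle-only regions overlapped by an H3K27me3 broad peak in each library. Right, the share of vehicle-only regions with such a peak minus the share of other regions, in percentage points. Points are libraries, horizontal lines means and vertical bars 1 SD (n = 3 per group). OA library 1 has 20 regions, against 2 to 6 in the other libraries.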

How the data were processed

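MCF-10A cells were profiled by CUT&RUN, and 16 peak lists were used: 3 vehicle and 3 OA libraries per histone mark and 2 untreated libraries each for H3K4me3 and IgG. The submitters' processing notes name MACS2 2.2.7.1, SICER, DiffBind 3.9, ChIPseeker 1.8.6 and hg38. Per the labels and methods, the authors ran the caller on single libraries, and the aligner, the treatment of duplicate reads and the control are not given in the sources used here. The deposited fold enrichment is a ratio of a peak to the caller's local background, not scaled between libraries. The −log10 p-value and −log10 q-value computed by the authors' caller grow with depth. The highest q-value was 0.00998 in the narrow and 0.1 in the broad lists. The deposited score column (10 times the −log10 q-value) and the summit offset were used for checks and to centre windows.

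Peaks on chromosomes 1 to 22, X and Y were merged with 1 bp overlap. Pileups were solved from fold and p-value, with a pseudocount of 1, for up to 1500 reads and a −log10 p of up to 250. Depth per library is known through these pileups alone, and for H3K27me3 it is unknown. Start sites came from GENCODE release 44, and a region is named after its nearest protein-coding start. A CpG island-like window had at least 50% GC and 0.6 observed over expected CpG. Motifs were exact matches on either strand, and NRF1, E-box, ETS and CHOP-ATF4 motifs were also counted. Libraries were compared by two-sided exact permutation tests over samples. No test was run over regions. The H3K27me3 lists of the same replicate number deviated together (r = 0.27, 0.114 and 0.142), the H3K4me3 lists did not (r = −0.0279, 0.139 and −0.225), and nothing in the labels says that numbers mark a shared day.

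The members, gene lists and limits were chosen with earlier results of these data known. Named regions were those called in all 3 vehicle libraries, up to 10 with the highest lower percentile, up to 10 over a protein-coding start, up to 10 called in both untreated libraries, up to 5 with H3K27me3 in at least 2 vehicle libraries, up to 5 under IgG, the 5 longest, genes with at least 2 members and members of the lists. Others were named after their values were seen, and not every region under the rule is described. The sequence and values of 1 region under the rule are not reported here. In a simulation, 200 of the 28846 regions, all called in all 6 libraries, were planted as vehicle-only by removing their OA peaks, and 200 were recovered. The rule fixes this outcome, so it checks the code alone and not how weak peaks behave. Alternatives were a q-value of at most 1e-05, equal numbers of peaks, a peak over at least 50% of a region, peaks within 1000 bp joined, removal of IgG or repeat regions, 3 libraries required, other distances, and each replicate left out. Python 3.11.15, numpy 2.4.6, scipy 1.17.1, pandas 2.3.3, pysam 0.24.0 and matplotlib 3.10.9 were used. Differential tests on read counts were not analysed here.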

Additional observations from a re-analysis of the deposited data

How the results depend on the processing

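The 372 vehicle-only regions numbered 263 to 425 with a stricter q-value, equal numbers of peaks, 50% cover, joined peaks, or IgG or repeat regions removed. They numbered 15 when all 3 vehicle libraries were required, and 44 to 711 with each H3K4me3 replicate left out, lowest without vehicle library 1. The share called in untreated cells, 16.4%, was 21.5% with 50% cover, 8.96% without IgG regions, 40% with 3 libraries required, 8.07% without the repeat and 6.96% without both. It ranged from 8.36% to 50.7% with each replicate left out, lowest without vehicle library 3, highest without library 2. The removal of repeat regions was added after the data were seen. The OA minus vehicle difference in members with H3K27me3, 4.33 regions, was 0 without IgG regions, 0 without the repeat and −0.667 without both. It ranged from −1.5 to 7.5 with each H3K27me3 replicate left out, and p-values ran from 0.4 to 1 over 23 alternatives. With a replicate block it stayed at 4.33 regions (exact p = 0.75), and the share difference at 1.17 percentage points (exact p = 0.25), where 3 pairs cannot go below 0.25. The share difference was positive in all 23 alternatives, from 0.182 to 4.58, with p between 0.1 and 0.9. The cause of these shifts was not tested. The median member peak stood on 11 to 13 reads, and whether depth decides the calls was not tested. The 1442 OA-only regions numbered 902 with equal numbers of peaks and 345 with 3 libraries required.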

Other observations

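Vehicle-only and OA-only regions sometimes lay near the same gene. Outside the repeat, 35 genes were nearest to both, with 37 vehicle-only and 41 OA-only regions. In 8 of these genes the 2 kinds of region lay within 5 kb of each other, and in 11 they lay over 100 kb apart. At BHLHE41, a repressor of the circadian clock, a vehicle-only region with 27 and 17 reads in vehicle libraries 1 and 2 and an OA-only region called in all 3 OA libraries both lay upstream of the start, the closest of these pairs. At VPS37B, a subunit of the ESCRT-I sorting complex, the gap was 787 bp. GADD45B, a stress-response gene, had a vehicle-only region 15356 bp and an OA-only region 19213 bp downstream of its start, 3216 bp apart. SETD1B had its vehicle-only region 1432 bp downstream and an OA-only region 2989 bp upstream of its start. These genes were chosen after their values were seen, and whether such pairs are more frequent than among other sets was not tested.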
